A study of Homo sapiens with 11 samples.

Results

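NEAT1, MALAT1 and the paraspeckle proteins SFPQ, NONO, PSPC1, TARDBP and RBM14 were taken by gene name from a table of 57773 genes in HCC78 cells. In the files they are MALAT1 (ENSG00000251562.3), NEAT1 (ENSG00000245532.4), SFPQ (ENSG00000116560.6), NONO (ENSG00000147140.11), PSPC1 (ENSG00000121390.13), TARDBP (ENSG00000120948.11) and RBM14 (ENSG00000239306.4). All 7 genes were present once in the table, and all 7 passed the minimum of a mean of 1 FPKM over the libraries that the tests used. FPKM counts the fragments of a gene in relation to its length and to the sequencing depth, so levels of different genes can be compared. NEAT1 is the long noncoding RNA around which paraspeckles assemble in the nucleus. SFPQ, NONO and PSPC1 form the DBHS family of RNA-binding proteins that coat it, RBM14 is a further protein needed for the assembly, and TARDBP (TDP-43) is an RNA-binding protein that can be found in these bodies. MALAT1, the gene next to NEAT1 on chromosome 11, gives an abundant nuclear RNA that sits in nuclear speckles, where splicing factors such as U2AF1 are stored.

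HCC78 is a lung adenocarcinoma line that carries an SLC34A2-ROS1 fusion and its own S34F copy of U2AF1, and both are shared by every group. Wild-type (WT) or S34F U2AF1 with FLAG and 6xHA tags was introduced with a lentiviral tet-inducible vector, stable subclones were made, and expression was switched on with doxycycline (dox). RNA-Seq covered 9 libraries: 2 from induced S34F cells (S34F dox+), 2 from induced wild-type cells (WT dox+), 2 from wild-type cells without induction (WT dox-), 1 from S34F cells without induction (S34F dox-) and 2 from the untransduced parental line. The labels place the parental libraries without doxycycline, while a column header among the study's supplementary files gives them as with it. No source used here says that replicates came from separate cultures, so p-values measure the spread between these libraries, which may be technical. No parental cells given doxycycline are labelled as such, so doxycycline itself and the induced U2AF1 cannot be told apart.

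U2AF1 was at 164 to 299 FPKM in the 4 dox+ libraries and at 103 to 115 FPKM in the 5 others, and the labels give S34F as 62% and 65% of U2AF1 in the S34F dox+ libraries and as 12% and 14% in the WT dox+ libraries. The induced level was itself uneven, at 278 and 299 FPKM of U2AF1 in WT dox+ and 164 and 223 FPKM in S34F dox+. The dox+ libraries also differed as a whole. Between 15736 and 20896 genes were at 1 FPKM or above in them, with the highest number in S34F dox+ replicate 2, against 13661 to 14688 in the 5 others. A depth relative to parental replicate 1, estimated from the steps between the lowest FPKM values, was 0.595 to 1.07 in dox+ and 1 to 1.23 in the others. The line kept its epithelial markers, since 7 of 8 epithelial and lung adenocarcinoma markers were at 1 FPKM or above in every library and SFTPB was not. The summed level of 3 leukocyte markers was 2.02 to 4.77 FPKM in dox+ and 0.07 to 1.97 FPKM in the others, and the 8 epithelial markers summed to 4983 to 7291 FPKM. Endothelial CDH5 did not exceed 0.95 FPKM, and 3 fibroblast markers summed to 5.49 to 10.8 FPKM in dox+ and 3.2 to 6.9 FPKM in the others.

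MALAT1 was the member with a called change, so the DNA around its annotated starts is shown. RefSeq promoter windows, 250 bases before and 50 after a start on GRCh38.p14, were found for 5 of the 7 members, with 6 windows in all. MALAT1 had 2 windows on the plus strand whose starts lie 1307 bases apart. Capitals mark the GC box (GGGCGG on either strand) in the upstream window, at chr11:65497488-65497787, and the TATA box (TATAAA on either strand) in the downstream window, at chr11:65498795-65499094.
MALAT1 upstream start: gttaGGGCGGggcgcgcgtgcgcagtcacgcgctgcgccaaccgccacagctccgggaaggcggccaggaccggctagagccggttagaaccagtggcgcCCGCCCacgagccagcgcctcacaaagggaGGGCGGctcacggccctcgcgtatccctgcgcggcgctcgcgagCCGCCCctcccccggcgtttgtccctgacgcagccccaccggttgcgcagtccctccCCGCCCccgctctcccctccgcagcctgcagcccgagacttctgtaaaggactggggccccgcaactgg
MALAT1 downstream start: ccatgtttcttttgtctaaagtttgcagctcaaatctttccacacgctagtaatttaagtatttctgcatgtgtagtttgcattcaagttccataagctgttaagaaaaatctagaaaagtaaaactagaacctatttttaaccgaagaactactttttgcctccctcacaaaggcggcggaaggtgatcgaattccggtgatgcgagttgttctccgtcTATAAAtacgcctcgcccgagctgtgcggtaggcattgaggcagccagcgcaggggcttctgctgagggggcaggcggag

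The upstream MALAT1 window held 5 GC boxes and was 73.7% G and C. The downstream window held 1 TATA box, which began 30 bases before the start, and was 46% G and C against a median of 58.7% over promoters. Of 35116 RefSeq windows of the same length, 11.5% held TATAAA and GGGCGG was held by 45% of them. The CCAAT box (CCAAT on either strand), found in 34.6% of all windows, occurred 3 times in the NONO window and 3 times in the RBM14 window, and GGGCGG occurred 1 time in the TARDBP window. No match to TGACGTCA (CRE, 1.85% of windows) or CACGTG (E-box, 7.26% of windows) was found in the 6 windows. These matches describe the letters in the windows, and the gene-level values do not say which start was used.

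The members spanned about 2 orders of magnitude in level. MALAT1 was the highest in every library, at 1079 to 3191 FPKM, and ranked between 38 and 131 among all genes of a library. SFPQ followed at 492 to 631 FPKM and NONO at 368 to 442 FPKM, so that the lowest SFPQ value lay above the highest NONO value. TARDBP was at 60.9 to 82.6 FPKM, RBM14 at 23.6 to 39.2 FPKM and PSPC1, the third DBHS protein, at 23.3 to 30.6 FPKM. The ranges of RBM14 and PSPC1 overlapped, and NEAT1, at 32.9 to 115 FPKM, overlapped those of TARDBP and RBM14. The level of SFPQ was 1.16 to 1.48 times that of NONO and 16.1 to 27.1 times that of PSPC1 within a library. NEAT1 varied most, with a highest value 3.51 times its lowest, followed by MALAT1 at 2.96 times. The 5 protein genes had highest values 1.2 times (NONO) to 1.66 times (RBM14) their lowest. In a bulk library a lower share of expressing cells and less RNA per cell cannot be told apart.

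The first question was whether these genes differed between the S34F and wild-type lines when both forms of U2AF1 were induced. The form of U2AF1, the transduced line and the uneven induced level cannot be told apart in this comparison. None of the 7 members was called in S34F dox+ against WT dox+ at an adjusted p under 0.05 from limma, and 0 had an unadjusted p under 0.05. Of all genes, 0.0527% of the 15179 tested were called in either direction (8 genes). MALAT1 was at 2492 and 3191 FPKM in S34F dox+ and at 2641 and 2342 FPKM in WT dox+. The groups overlapped, and the log2 fold change was 0.18 (95% confidence interval -0.19 to 0.56, adjusted p = 0.875 from limma). NEAT1 was at 72.8 and 115 FPKM in S34F dox+ and at 88.1 and 71.9 FPKM in WT dox+, with a log2 fold change of 0.2 (interval -0.49 to 0.89, adjusted p = 0.936 from limma). The higher NEAT1 mean in S34F dox+ rested on replicate 2, without which the log2 fold change was -0.13.

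Among the protein-coding members, the mRNA of SFPQ was at 492 and 496 FPKM in S34F dox+ and at 517 and 542 FPKM in WT dox+. These values did not overlap, and the fitted log2 fold change of -0.1 (interval -0.36 to 0.16, adjusted p = 0.905 from limma) was not called. How many of all genes were without overlap between these small groups was not counted, so nothing is concluded from this order. NONO was at 379 and 381 FPKM against 383 and 368 FPKM, with a log2 fold change of 0.02 (interval -0.19 to 0.22) that had the opposite sign under median-ratio, quantile and TPM scaling. TARDBP was at 68.4 and 71.1 FPKM against 67.5 and 72.1 FPKM, and its means differed by less than the spread within either group. For PSPC1, at 30.6 and 27.4 FPKM against 26.9 and 28 FPKM, the log2 fold change was 0.07 (interval -0.26 to 0.4), and TPM gave the opposite sign. RBM14, at 30.3 and 38.2 FPKM against 35.9 and 37.5 FPKM, had a log2 fold change of -0.11 (interval -0.5 to 0.28), which turned to 0.055 without S34F dox+ replicate 1.

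**Figure D1:**
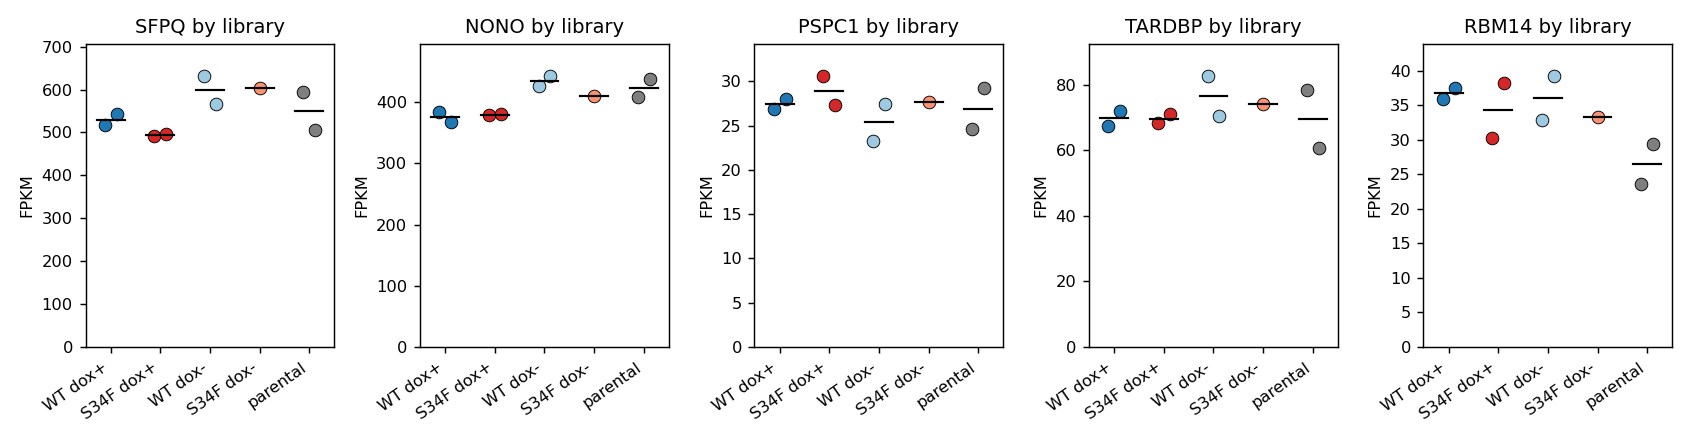
FPKM of SFPQ, NONO, PSPC1, TARDBP and RBM14 (y axis, from 0, a scale for each gene) in the 9 libraries by group (x axis). Points are libraries and lines are group means. NONO in the 4 dox+ libraries, at 368 to 383 FPKM, lies below the 5 others, at 409 to 442 FPKM, while the other protein-coding genes overlap.

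The second question was how the members differed between induced and uninduced cells. MALAT1 and NEAT1 were higher in all 4 dox+ libraries than in all 5 others, and this held for 7.64% of the 15179 genes. MALAT1 was at 2641 and 2342 FPKM in WT dox+ and 2492 and 3191 FPKM in S34F dox+, and at 1433 and 1125 FPKM in WT dox-, 1079 FPKM in S34F dox- and 1301 and 1223 FPKM in the parental line. Its mean was 2667 ± 370 FPKM (SD, n = 4) in dox+ and 1232 ± 142 FPKM (SD, n = 5) in the others, a ratio of 2.16, and the lowest dox+ library was well clear of the highest other library. NEAT1 was at 88.1 and 71.9 FPKM in WT dox+ and 72.8 and 115 FPKM in S34F dox+, and at 32.9 and 50.5 FPKM in WT dox-, 41.3 FPKM in S34F dox- and 48.2 and 71.7 FPKM in the parental line. Its mean was 87.1 ± 20.3 FPKM (SD, n = 4) in dox+ and 48.9 ± 14.4 FPKM (SD, n = 5) in the others, a ratio of 1.78. The lowest dox+ value, 71.91 FPKM, exceeded the higher parental value, 71.65 FPKM, by a small margin, and under median-ratio scaling the ranges overlapped.

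**Figure D2:**
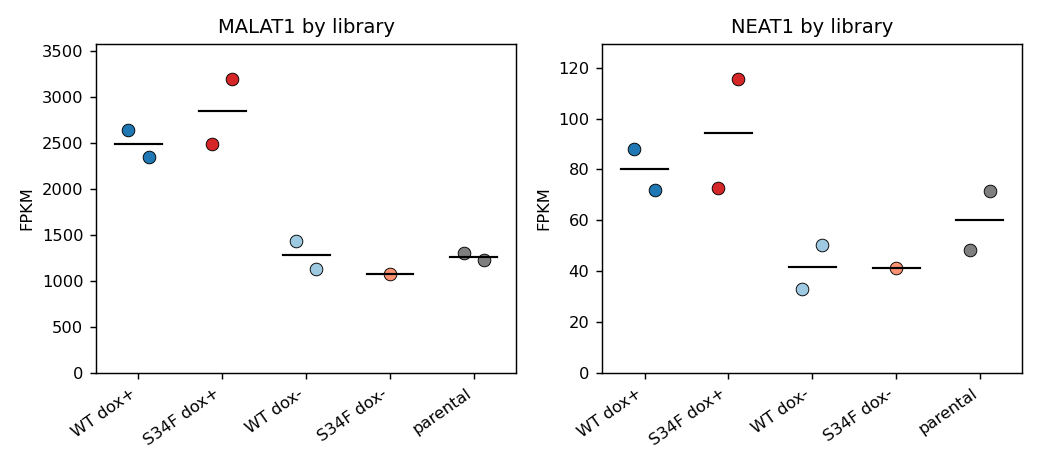
FPKM of MALAT1 (left) and NEAT1 (right) in the 9 libraries by group (x axis), each y axis from 0. Points are libraries and lines are group means. All 4 dox+ libraries lie above the 5 others for MALAT1 (2342 to 3191 against 1079 to 1433 FPKM), and for NEAT1 the lowest dox+ library lies just above the higher parental library.

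In the wild-type line alone, MALAT1 had a difference of 0.97 between WT dox+ and WT dox- on the log2 scale of FPKM + 1 (SE 0.16, unadjusted p = 0.000382) and NEAT1 one of 0.95 (SE 0.3, unadjusted p = 0.0134), but with adjusted p of 0.105 and 0.238 from limma neither was called. Only 0.0132% of genes were called in that comparison (2 genes), while 14.4% had an unadjusted p under 0.05. U2AF1, the induced gene, differed by 1.37 there (unadjusted p = 2.29e-05, limma, adjusted p = 0.0506) and was not called either. A missing call in this comparison therefore does not show that a gene was unchanged. NONO, at 383 and 368 FPKM against 426 and 442 FPKM, differed by -0.21 on the log2 scale (limma, adjusted p = 0.345), and SFPQ, at 517 and 542 FPKM against 631 and 566 FPKM, by -0.17 (limma, adjusted p = 0.504). In the S34F line the only uninduced library had 1079 FPKM of MALAT1 and 41.3 FPKM of NEAT1, both below the 2 induced libraries. The share of all genes with this order was not counted.

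The difference between the responses of the lines, tested as S34F minus wild-type, was 0.42 for MALAT1 (interval -0.18 to 1.01) and 0.18 for NEAT1 (interval -0.9 to 1.27) on the log2 scale. No member was called for it, and 0.0264% of genes were (4 genes). This comparison rests on 1 S34F dox- library, which is assumed to vary like the other groups.

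Averaged over both lines, a comparison chosen after the values were seen, MALAT1 rose by 1.18 on the log2 scale (SE 0.13, interval 0.88 to 1.47, adjusted p = 0.0103 from limma), and 3.88% of genes were called (589 genes). U2AF1, the induced gene, rose by 1.05 (interval 0.77 to 1.33, adjusted p = 0.0108 from limma), and the fitted change of MALAT1 lay within this interval. U2AF1 was called in 14 of 17 alternatives, and its call was lost without WT dox- replicate 1 (adjusted p = 0.0605 from limma), WT dox+ replicate 1 (adjusted p = 0.0754 from limma) or WT dox+ replicate 2 (adjusted p = 0.0679 from limma). NEAT1 had a change of 1.04 (SE 0.23, interval 0.5 to 1.59, adjusted p = 0.0539 from limma) and was just outside the threshold. The adjusted p of NEAT1 was between 0.0418 and 0.173 over the alternatives, and it was called in 4 of 17. MALAT1 was called in 15 of 17 alternatives and missed the threshold without WT dox+ replicate 1 (adjusted p = 0.0754 from limma) and without WT dox+ replicate 2 (adjusted p = 0.0558 from limma), although its change stayed between 1.09 and 1.27. The count of 589 genes fell to 25 without either of these libraries, to 58 without WT dox- replicate 1 and to 125 without S34F dox+ replicate 2. The count of genes reaching 1 FPKM was also higher in all 4 dox+ libraries, and its part in the result was not tested.

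The mRNAs of the 5 protein-coding members moved less than MALAT1 and NEAT1 in the same comparison, and their proteins were not measured here. SFPQ had a log2 change of -0.23 (interval -0.43 to -0.03, adjusted p = 0.155 from limma), NONO of -0.16 (interval -0.32 to 0.01, adjusted p = 0.211 from limma), TARDBP of -0.11, PSPC1 of 0.09 and RBM14 of 0.03, and none was called. The sign for RBM14 turned with median-ratio and TPM scaling. NONO was lower in all 4 dox+ libraries than in the 5 others, at 378 ± 6.85 FPKM (SD, n = 4) against 425 ± 15.3 FPKM (SD, n = 5), which held for 3.16% of genes and for 8.29% of the 3777 genes averaging 30 FPKM or more. With TPM or with scaling to protein-coding genes its ranges overlapped.

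**Figure D3:**
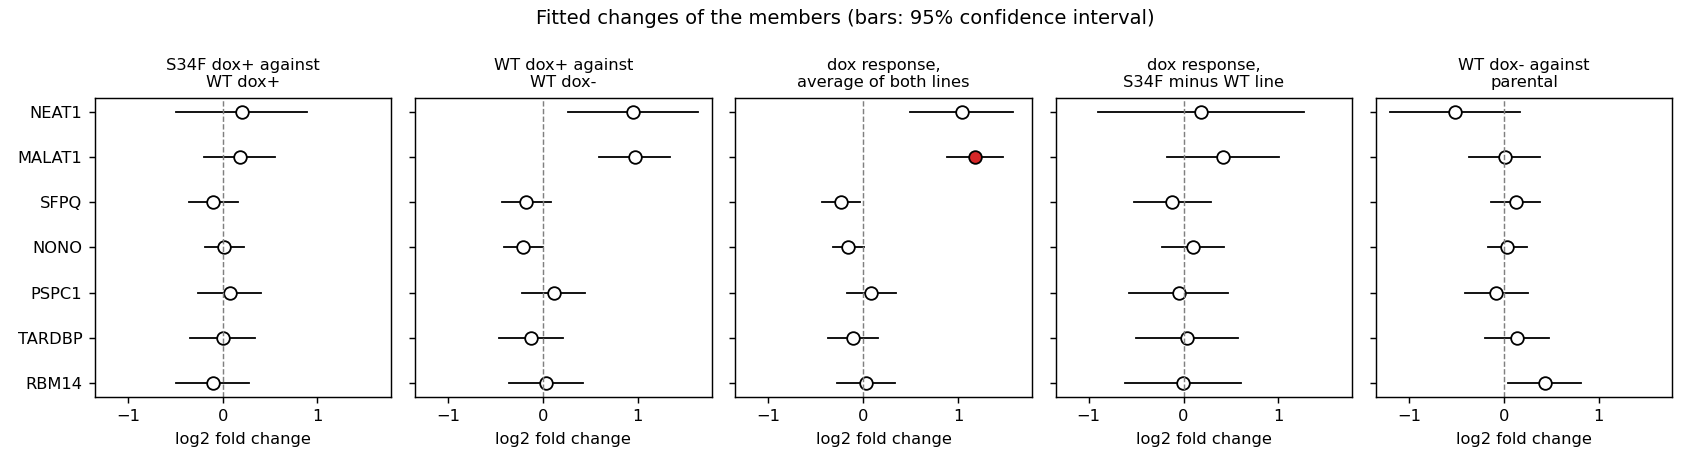
Log2 fold changes of FPKM + 1 (x axis) for the 7 members in 5 comparisons (panels), with 95% confidence intervals from limma as bars. The filled point, MALAT1 in the average over both lines at 1.18, is the only one with an adjusted p under 0.05, and in S34F dox+ against WT dox+ every interval includes 0.

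Ratios of members within a library do not depend on how libraries are scaled. MALAT1 was 5.11 and 4.32 times SFPQ in WT dox+ and 5.06 and 6.43 times in S34F dox+, but 2.27 and 1.99 times in WT dox-, 1.78 times in S34F dox- and 2.19 and 2.42 times in the parental line. The dox+ libraries therefore had the higher ratios without overlap, with a mean of 5.23 against 2.13. MALAT1 alone already separated these libraries, so this ratio largely repeats that split. NEAT1 per NONO was 0.192 to 0.303 in dox+ and 0.0772 to 0.164 in the others, also without overlap. Since FPKM was higher for NEAT1 and lower for NONO in all dox+ libraries, their ratio had to separate and is no further result. NEAT1 per SFPQ overlapped, at 0.133 to 0.233 and 0.0522 to 0.142. Within the DBHS family, NONO per PSPC1 was 12.4 to 14.3 in dox+ and 14.8 to 18.3 in the others. The FPKM of NONO alone already separated these libraries, so this ratio in part repeats that split. SFPQ per NONO was 1.3 to 1.47 and 1.16 to 1.48, so these 2 family members kept overlapping proportions. The ranges were 6.98 to 7.67 and 7.56 to 8.31 for SFPQ per TARDBP, 13 to 16.2 and 14.5 to 25.2 for SFPQ per RBM14, 0.444 to 0.537 and 0.300 to 0.556 for RBM14 per TARDBP, and 16.1 to 19.4 and 17.3 to 27.1 for SFPQ per PSPC1. All 4 of these overlapped, so that 3 of the 10 ratios computed were without overlap. The 10 ratios share genes, and how often ratios of other gene pairs separate these libraries was not counted. MALAT1 per NEAT1 ranged from 17.1 in parental replicate 2 to 43.5 in WT dox- replicate 1 and overlapped between dox+ and the others.

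**Figure D4:**
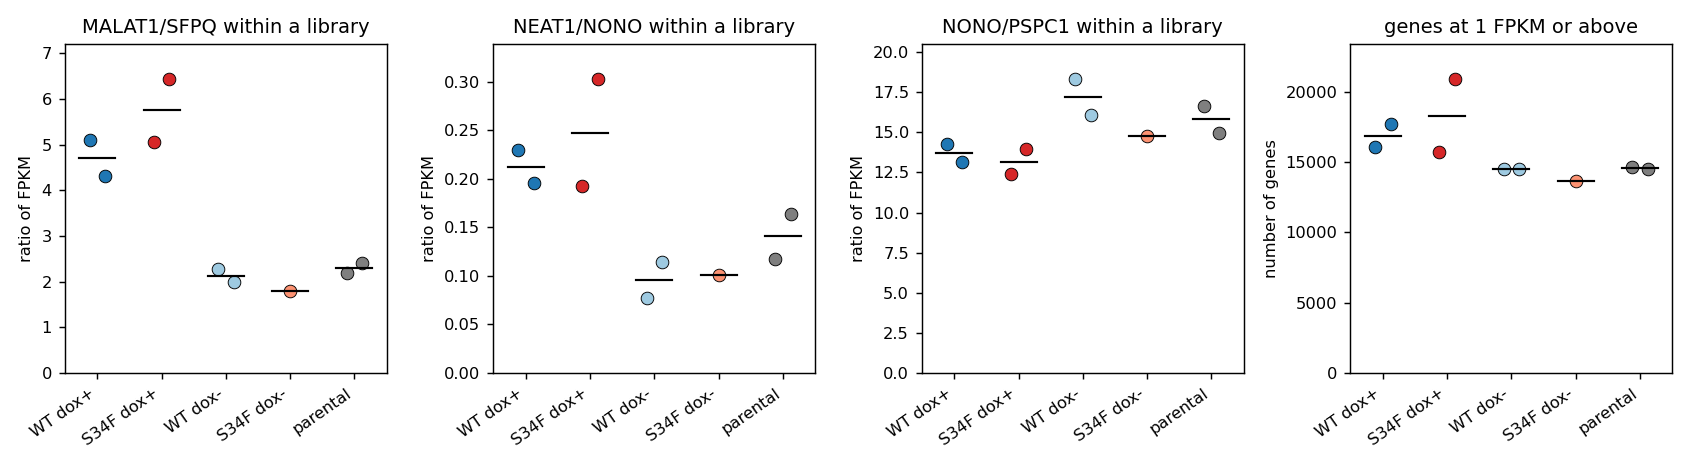
Ratios of FPKM within a library for MALAT1/SFPQ, NEAT1/NONO and NONO/PSPC1, and the count of genes reaching 1 FPKM (y axes, from 0), by group (x axis). Points are libraries and lines are group means. The 3 ratios shown are those of the 10 computed that did not overlap, and all 4 panels separate the 4 dox+ libraries from the 5 others, with MALAT1/SFPQ at 4.32 to 6.43 against 1.78 to 2.42.

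Level and type of gene bore on how common this pattern was. Of the 504 lincRNAs at a mean of 1 FPKM or above, 17.1% were higher in all 4 dox+ libraries than in the 5 others, as MALAT1 and NEAT1 are, compared with 15.3% of 1435 pseudogenes and 5.8% of 11993 protein-coding genes. Among the 239 genes that averaged 500 FPKM or more, the class of MALAT1, 3 genes (1.26%) were higher in all dox+ libraries and 58 (24.3%) lower. The other 2 of the 3 were the small RNA genes RNVU1-9 and SNORD3A. The ratio of means was 2.19 for RNVU1-9, 2.16 for MALAT1 and 1.6 for SNORD3A. Across these 239 genes, SFPQ among them, the median ratio of the dox+ mean to the mean of the others was 0.889, close to the 0.882 of SFPQ. NONO averaged 404 FPKM and was not in this class. Its ratio was 0.889, where the median over genes averaging 30 FPKM or more was 0.941.

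Uninduced transduced cells were also compared with the parental line. No member was called in WT dox- against parental, in which 0.0988% of genes were (15 genes). RBM14, at 32.9 and 39.2 FPKM in WT dox- and 23.6 and 29.5 FPKM in the parental line, differed by 0.43 on the log2 scale (interval 0.04 to 0.82, unadjusted p = 0.0341, limma, adjusted p = 0.359). NEAT1, at 32.9 and 50.5 FPKM against 48.2 and 71.7 FPKM, differed by -0.52 (interval -1.21 to 0.17, limma, adjusted p = 0.535). Neither difference passed the test, and the NEAT1 groups overlapped. Of all genes tested, 12.3% had an unadjusted p under 0.05 in this comparison.

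Genes named after a member can share its reads. The read-through gene RBM14-RBM4 was at 2.17 to 5.59 FPKM, and its sum with RBM14 was 26.1 and 33 FPKM in the parental line and 33.9 to 43.1 FPKM in the 7 transduced libraries. The pseudogene NONOP2 was at 0.49 to 3.76 FPKM, at most 1.02% of the lowest NONO value. SFPQP1, PSPC1P1, PSPC1P2, TARDBPP1 and TARDBPP2 did not exceed 0.97 FPKM in any library.

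Other genes of these nuclear bodies were read from lists. The paraspeckle assembly proteins HNRNPK, DAZAP1, HNRNPH3 and SMARCA4 were tested, and none of these 4 was called in any comparison by limma. In S34F dox+ against WT dox+ their log2 fold changes ran from -0.09 for DAZAP1 to 0.01 for SMARCA4, where the median over all genes was 0.03, and 0 of them had an unadjusted p under 0.05. In the average over both lines, where the median over all genes was 0.08, the values were -0.15 for HNRNPK, -0.17 for HNRNPH3, -0.23 for DAZAP1 (unadjusted p = 0.0266, limma, adjusted p = 0.148) and -0.30 for SMARCA4 (unadjusted p = 0.0182, limma, adjusted p = 0.125). An unadjusted p under 0.05 was found for 25.1% of all genes tested in that average. HNRNPK, an hnRNP that binds poly(C), was at 589 to 639 FPKM in dox+ and 632 to 717 FPKM in the others, and these ranges overlapped.

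Of 24 other paraspeckle proteins none was called in any comparison. In S34F dox+ against WT dox+ their median was -0.05, 0 of 24 had an unadjusted p under 0.05, and their extremes were FAM98A at 0.39 and NUDT21, a subunit of the cleavage factor that sets poly(A) sites, at -0.28. Next to these stood RBM4B at 0.15 and CPSF7, the partner of NUDT21 in that factor, at -0.21. In the average over both lines 3 of 24 were above 0, with a median of -0.14, and 5 had an unadjusted p under 0.05 (1 higher and 4 lower), as had 25.1% of all genes tested. RBM4B had the highest value of the list there, 0.77 (adjusted p = 0.0679 from limma).

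Of 18 nuclear speckle proteins none was called in the 4 planned comparisons by limma, and their median in S34F dox+ against WT dox+ was -0.05. An unadjusted p under 0.05 there was found for 2 of the 18, against 6.78% of all genes tested. These were the induced gene U2AF1 itself, at -0.59, and its partner U2AF2, which binds the polypyrimidine tract, at -0.38. In the average over both lines U2AF1 was called higher and U2AF2 lower. U2AF2 was at 96 to 134 FPKM in dox+ and 115 to 182 FPKM in the others, and it fell by 0.46 on the log2 scale (limma, adjusted p = 0.0395). This call was made in 4 of 17 alternatives and in 0 of the 8 that left out a library, with adjusted p of 0.0544 to 0.139 from limma in those 8. U2AF2 was also 0.55 higher in WT dox- than in the parental line (unadjusted p = 0.00119, limma, adjusted p = 0.143). In the average over both lines 7 of the 18 were above 0, with a median of -0.06. By limma, 1 was higher and 5 were lower there at an unadjusted p under 0.05, against 15.9% and 9.22% of all genes tested. SON and SRRM2, the scaffold of the speckles that hold MALAT1, had values of 0.19 (adjusted p = 0.263 from limma) and 0.16 (adjusted p = 0.381 from limma) in that average.

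Of 10 other long noncoding RNAs 8 were tested, and none was called in the 4 planned comparisons by limma, with 0 of 8 at an unadjusted p under 0.05 in S34F dox+ against WT dox+ and 1 of 8 in WT dox+ against WT dox-. In the average over both lines 4 of 8, all higher, had an unadjusted p under 0.05, against 15.9% of all genes tested that were higher at that level, and the 8 values ran from -0.04 to 1.14. FTX, a lincRNA of the X inactivation center, was the gene called there, and it rose by 1.14 on the log2 scale (limma, adjusted p = 0.0276), being at 7.78 to 11.8 FPKM in dox+ against 3.33 to 6.1 FPKM in the others. It was called in 10 of 17 alternatives, among them 2 of the 8 that left out a library. OIP5-AS1 had a value of 0.33 (adjusted p = 0.128 from limma), TUG1, another nuclear lincRNA, one of 0.2 (adjusted p = 0.199 from limma), and GAS5, a snoRNA host gene, one of -0.04 (adjusted p = 0.865 from limma). None of 13 mitochondrially encoded protein genes was called in any comparison, and their median in the average over both lines was -0.2, with 2 at an unadjusted p under 0.05, both lower, against 25.1% of all genes tested. In S34F dox+ against WT dox+ their values ran from -0.33 (MT-ND1) and -0.21 (MT-ND2) to -0.03 (MT-CO2) and -0.0036 (MT-ATP8).

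The genes whose pattern was most like that of MALAT1, by Pearson's r of log2(FPKM + 1) over the 9 libraries among the 10024 genes that averaged 5 FPKM or more, were CTB-89H12.4 (r = 0.994), the acetyltransferase gene EP300 (r = 0.985), the pseudogene RP3-449O17.1 (r = 0.985), PHIP (r = 0.981) and the lincRNA RP11-222A11.1 (r = 0.98). For NEAT1 they were the mucin gene MUC4 (r = 0.982), the NF-kB subunit gene REL (r = 0.974), AUH (r = 0.965), PHYKPL (r = 0.964) and FTX (r = 0.962). MUC4 was at 200 to 287 FPKM in dox+ and at 105 to 177 FPKM in the others, and EP300 was at 22.9 to 25.4 FPKM and 17.6 to 19.8 FPKM. These coefficients share the split between dox+ and other libraries and describe 9 libraries only. By the same measure NEAT1 and MALAT1 had r = 0.791. With NEAT1, SFPQ had r = -0.919 (0.579th percentile of these genes), NONO -0.601, TARDBP -0.645, RBM14 0.31 and PSPC1 0.558. With MALAT1, NONO had r = -0.858 (1.49th percentile), SFPQ -0.674, TARDBP -0.174, PSPC1 0.249 and RBM14 0.351.

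The last comparison concerned splicing, which was given as 1 pooled MISO comparison of S34F with wild-type cells, without replicates, so that no error between libraries can be given. MISO estimates PSI, the share of transcripts with the first-named form of an event, and a Bayes factor for a difference. Of the 7 members, 4 had annotated events in the tables: 11 in NONO, 11 in RBM14, 6 in TARDBP and 3 in SFPQ. NEAT1, MALAT1 and PSPC1 had none. An event was called where PSI differed by 0.10 or more and the Bayes factor reached 5. By this rule 1 of the 31 events was called, against 1.18% of 87763 events with at least 10 reads. A PSI difference of at least 0.10 alone was found for 4 of the 31 and for 32.9% of all events. The PSI differed by 0.02 or less in 22 of the 31.

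The called event was a skipped exon in NONO, on the plus strand of the X chromosome in build GRCh37 (hg19). Its inclusion junction is chrX:70511822-70514248 and its skipping junction chrX:70511822-70516415. PSI was 0.34 in S34F and 0.45 in wild-type, a difference of -0.11 with a Bayes factor of 5.12, from 1310 and 1930 reads. Both values are just past the thresholds, and the event was not called with a Bayes factor of at least 20 or a difference of at least 0.20. Another skipped exon of NONO near the 5′ end, with an inclusion junction of chrX:70503571-70504247, had nearly the same PSI in both conditions, 0.46 and 0.45, from 3363 and 5046 reads. The other 10 NONO events differed by at most 0.02.

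The 3 other events past 0.10 had low Bayes factors and were all lower in S34F. A NAGNAG event in RBM14, a choice between acceptors 3 bases apart at chr11:66384528-66391372 and chr11:66384528-66391375, had PSI of 0.39 with S34F against 0.72 with wild-type, at a Bayes factor of 1.58 from 227 and 315 reads. The same 11 events are listed for RBM14, RBM4 and RBM14-RBM4, so they are not particular to RBM14. In TARDBP an alternative 5′ splice site pair 9 bases apart, at chr1:11082307-11083250 and chr1:11082298-11083250, had PSI of 0.24 and 0.51 (Bayes factor 1.13, 693 and 1049 reads). In SFPQ a NAGNAG event 3 bases apart, at chr1:35642075-35642920 and chr1:35642072-35642920 on the minus strand, had PSI of 0.3 and 0.48 (Bayes factor 1.05, 2699 and 4419 reads). The reads are those of the whole event, of which few may tell apart forms that differ by 3 or 9 bases.

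**Figure D5:**
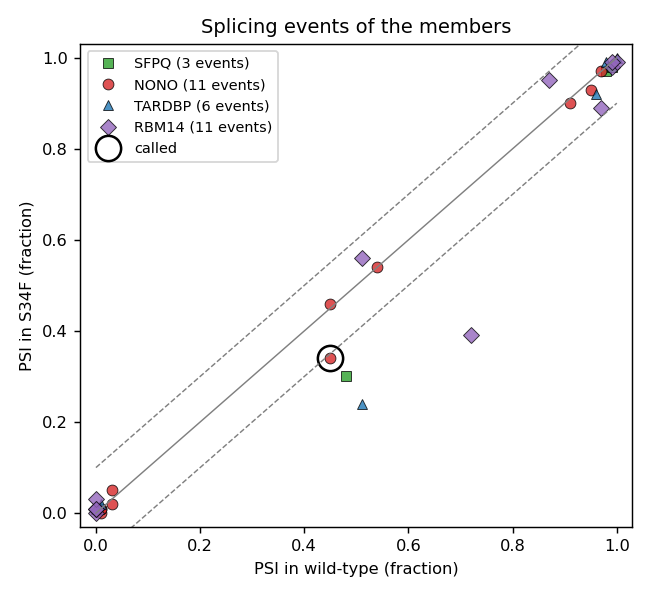
PSI in S34F (y axis) against PSI in wild-type (x axis) for the 31 annotated events of SFPQ, NONO, TARDBP and RBM14, as fractions. The solid line marks equal PSI and the dashed lines a difference of 0.10. The circled NONO exon, at 0.34 and 0.45, is the only event past both thresholds, and 3 events lie further below the line with Bayes factors of 1.05 to 1.58.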

How the data were processed

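The authors aligned paired-end reads of total RNA (SMARTer stranded kit) and computed FPKM and TPM per gene, and the table was used as deposited. STAR 2.3.0, RSEM 1.2.29 and the builds GRCh37 and hg19 are named in the submitters' processing notes. There are no counts, so DESeq2, the authors' tool, and edgeR could not be applied, and no counting interval can be given. The members and lists were chosen with earlier results of these data known. limma-trend (limma 3.58.1, R 4.3.3) was fitted to log2(FPKM + 1) of 15179 genes averaging 1 FPKM or more, 5 groups in a single fit without covariates. Tests were two-sided, with Benjamini-Hochberg adjustment over all genes. A fold change on the scale of log2(FPKM + 1) understates the change of low genes. The fit was run on simulated data with changes larger than those of the members and the same spread for every gene. That run does not show how well changes of the size reported here are found. The average over both lines and the counts of separated libraries were added after seeing the data, with their alternatives.

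For splicing, the authors deposited per-event MISO values: PSI as a fraction, read counts of the event in each condition, and a Bayes factor, a score of the authors' own comparison that was used only as the threshold of the study's methods. In the alternative 3′ and 5′ splice site tables PSI can hold several isoforms, and the one with the largest Bayes factor was used. The authors' PSI differences were not used. Events repeated for several genes were counted once for the background (92662 unique events). The study describes the comparison as one of cells overexpressing either form, but which libraries were pooled, and the orientation of PSI, are not given in the sources used here, and PSI was read from the order of forms in the event names.

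Named were the 7 members, the 5 genes most correlated with NEAT1 and with MALAT1, of each list the called genes or otherwise the 2 highest and 2 lowest in S34F dox+ against WT dox+, and genes carrying a member's symbol. Some list genes beyond this rule (HNRNPK, SON, SRRM2, TUG1, OIP5-AS1, GAS5, RBM4B) were named after their values were seen, as were RNVU1-9 and SNORD3A. One gene of the assembly list is not reported here, so no summary over that list is given. Binding data (iCLIP) were not analysed here.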

Additional observations from a re-analysis of the deposited data

How the results depend on the processing

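No member was called in any of the 4 planned comparisons under any alternative run. In the average over both lines, the members called were 1 in the main comparison, 2 (with NEAT1) with a pseudocount of 0.1, a minimum mean of 5 FPKM, scaling to protein-coding genes or a replicate block, and 0 to 1 with a library left out. MALAT1 had 1.09 to 1.27 there, FTX 1 to 1.27, U2AF1 0.94 to 1.16 and U2AF2 -0.52 to -0.41. Genes called in S34F dox+ against WT dox+ were 8, against 4 with a pseudocount of 0.1, 3 with no minimum, 5 with a replicate block and 3 to 28 with a library left out. In WT dox+ against WT dox- 2 became 7, 8 and 10 with a pseudocount of 0.1, a minimum of 5 FPKM and protein-coding scaling, 0 with no minimum, median-ratio, quantile, TPM or the block, and 0 to 9 with a library left out. For the difference of the responses 4 became 33 with no minimum and 2 to 11 with a library left out. In WT dox- against parental 15 became 4 with no minimum, 8 with quantile normalization, 6 with the block and 3 to 28 with a library left out. In the average 589 became 140 with no minimum, 209 with quantile normalization, 242 with the block, 225 with only the libraries compared and 25 to 390 with a library left out. Where no gene was called in WT dox+ against WT dox-, the unadjusted p was under 0.05 for 759 to 2462 higher and 544 to 1085 lower genes. The S34F dox- library is assumed to vary like the other groups, as is a library left alone in its group. The causes were not tested.

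For splicing, 1 called member event became 0 with a Bayes factor of at least 20 or a difference of at least 0.20, and 1034 called events overall became 392 with a Bayes factor of at least 20. Members above the others in all dox+ libraries were 1 with median-ratio scaling instead of 2, and members below were 0 with TPM or protein-coding scaling instead of 1.

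Signs turned only for values that were not called. In S34F dox+ against WT dox+ NONO was -0.012 with median-ratio, -0.00023 with quantile and -0.10 with TPM scaling, PSPC1 -0.040 with TPM and TARDBP 0.0046 with protein-coding scaling. In the average RBM14 was -0.024 with median-ratio and -0.015 with TPM. With a library left out, the S34F against WT values ran from -0.13 to 0.53 (NEAT1), -0.013 to 0.046 (NONO), -0.0033 to 0.15 (PSPC1), -0.048 to 0.046 (TARDBP) and -0.27 to 0.055 (RBM14), NEAT1 in the difference from -0.14 to 0.51, and RBM14 in the average from -0.050 to 0.11. TPM moved the median of all genes from 0.03 to -0.07 in S34F dox+ against WT dox+.

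Deviations of same-numbered libraries had correlations of -0.076 to 0.037 across genes between the 4 groups of 2, so no pairing was seen over all genes together. A pairing that bears on some genes only cannot be seen this way. The labels do not say whether same-numbered libraries were handled together. The relative depth was lowest in S34F dox+ replicate 2 (0.595) and replicate 1 (0.707), and the file gives no counts from which counting error could be computed.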
